A study of Danio rerio with 15 samples.

Results

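The genes evx1, dmrt3a, wt1a, tlx2 and tlx3b encode transcription factors that are used to recognise classes of spinal neuron other than the V1 class. They were taken as every probe set whose platform gene symbol was one of these names, which gave 7 probe sets of 5 genes among 15502 tested probe sets, or 5 of 8793 genes with a symbol of their own. Of the 7 probe sets 3 belonged to wt1a, and each other gene had 1. The rule itself goes by gene name and uses no measured value, but the names were picked with earlier results of these data known.

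RNA was measured on 15 Affymetrix arrays of cells from the trunk of zebrafish embryos, all at 27 hours after fertilization. V1 interneurons, called CiA in the labels, were sorted by green fluorescence from Tg(pax2a:GFP) embryos after the pronephros region had been cut away (6 arrays). All spinal neurons were sorted from Tg(elavl3:EGFP) embryos, a line whose reporter comes on when neurons leave the cell cycle (5 arrays). Trunk cells of every tissue in the same region went through the sorter, with no transgenic line named for them (4 arrays). The groups overlap in content, because V1 cells are among all spinal neurons and spinal neurons are among trunk cells. The reporter of the V1 line follows pax2a, which other cells of the embryo also use, so the V1 samples are as pure as that reporter, the dissection and the sort made them.

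Spinal interneurons arise in ordered domains along the dorsoventral axis, and each class keeps a set of transcription factors after its cells stop dividing. Evx1 marks the excitatory V0 neurons next to the V1 domain, and in mouse it holds those cells back from V1 identity. Dmrt3 and Wt1 mark dI6 neurons, which lie dorsal of V0 and are largely inhibitory in mouse. Tlx factors mark excitatory dorsal neurons, and in mouse they favour a glutamate fate over the GABA fate that Pax2 accompanies. In zebrafish, tlx3b is also active in Rohon-Beard cells, the early touch-sensing neurons of the dorsal cord.

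Levels are the deposited RMA values on the log2 scale, in which 1 unit is a doubling of signal. All values together had a lower quartile of 4.07, a median of 5.52 and an upper quartile of 7.41. Detection calls were not part of the values, and levels near or under the lower quartile may be background. A level is compared only with the same probe set on other arrays. In sorted pools of cells, a smaller share of a cell type and less RNA per cell of that type cannot be told apart.

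The V1 label was checked against en1b, while all spinal neurons had no list of pan-neuronal markers here. en1b is 1 of 11 measured genes of a V1 list that is read further below. By the test given below, 6 of these 11 were higher in V1 than in all-neuron arrays, and 2, sp8b and foxp2, were lower. The V1 marker en1b averaged 11.25 ± 0.24 (SD, n = 6) in V1 arrays, 9.64 ± 0.20 (n = 5) in all-neuron arrays and 8.13 ± 0.16 (n = 4) in trunk arrays. The mean over 4 red blood cell genes was 8.99 to 10.45 in V1 arrays, 4.77 to 5.17 in all-neuron arrays and 9.23 to 10.04 in trunk arrays. Of these 4 genes all were higher in V1 than in all-neuron arrays (adjusted p under 0.05 in the test given below). Over all 8793 genes, by 1 probe set each, 15.2% were higher and 9.02% lower there. Of 6 pronephros tubule genes 5 were higher in V1 arrays, with a mean over the 6 of 6.91 to 7.76, against 4.14 to 5.68 in all-neuron arrays. Of 6 neural crest and enteric neuron genes 5 were higher in V1 arrays, with means of 9.03 to 9.87, against 6.67 to 7.25. These 5 were sox10, crestin, mitfa, dct and foxd3, while ret did not pass (0.23, adjusted p = 0.351). The listed genes phox2ba and phox2bb were not measured. Of 10 skeletal muscle genes 8 were lower in V1 arrays, whose means were 7.27 to 8.29, against 9.97 to 10.21 in all-neuron arrays 1 to 3 and 7.94 and 8.24 in arrays 4 and 5. Against trunk arrays, V1 arrays were higher for 4 of the pronephros and all 6 neural crest genes, where 23.3% of all 8793 genes were. Trunk means were 5.73 to 6.08 for the pronephros list and 7.66 to 8.50 for the neural crest list. All 10 muscle genes were lower in V1 than in trunk arrays, where 20.6% of all genes were. What these other cells add to or take from the values below was not tested. Of the array's 115 control probe sets only 1, AFFX-Dr-U43284-1_s_at, is described here. It differed between the groups, with signals of 4.98 to 5.59 in V1 arrays and 10.16 to 10.76 in all-neuron arrays. It also split the trunk arrays, at 8.02 and 8.16 in arrays 1 and 2 but 5.63 and 5.71 in arrays 3 and 4. What its probes detect was not established, so these values are not read as a measure of array quality. Results against trunk are also given without trunk arrays 1 and 2 where they change.

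**Figure D1:**
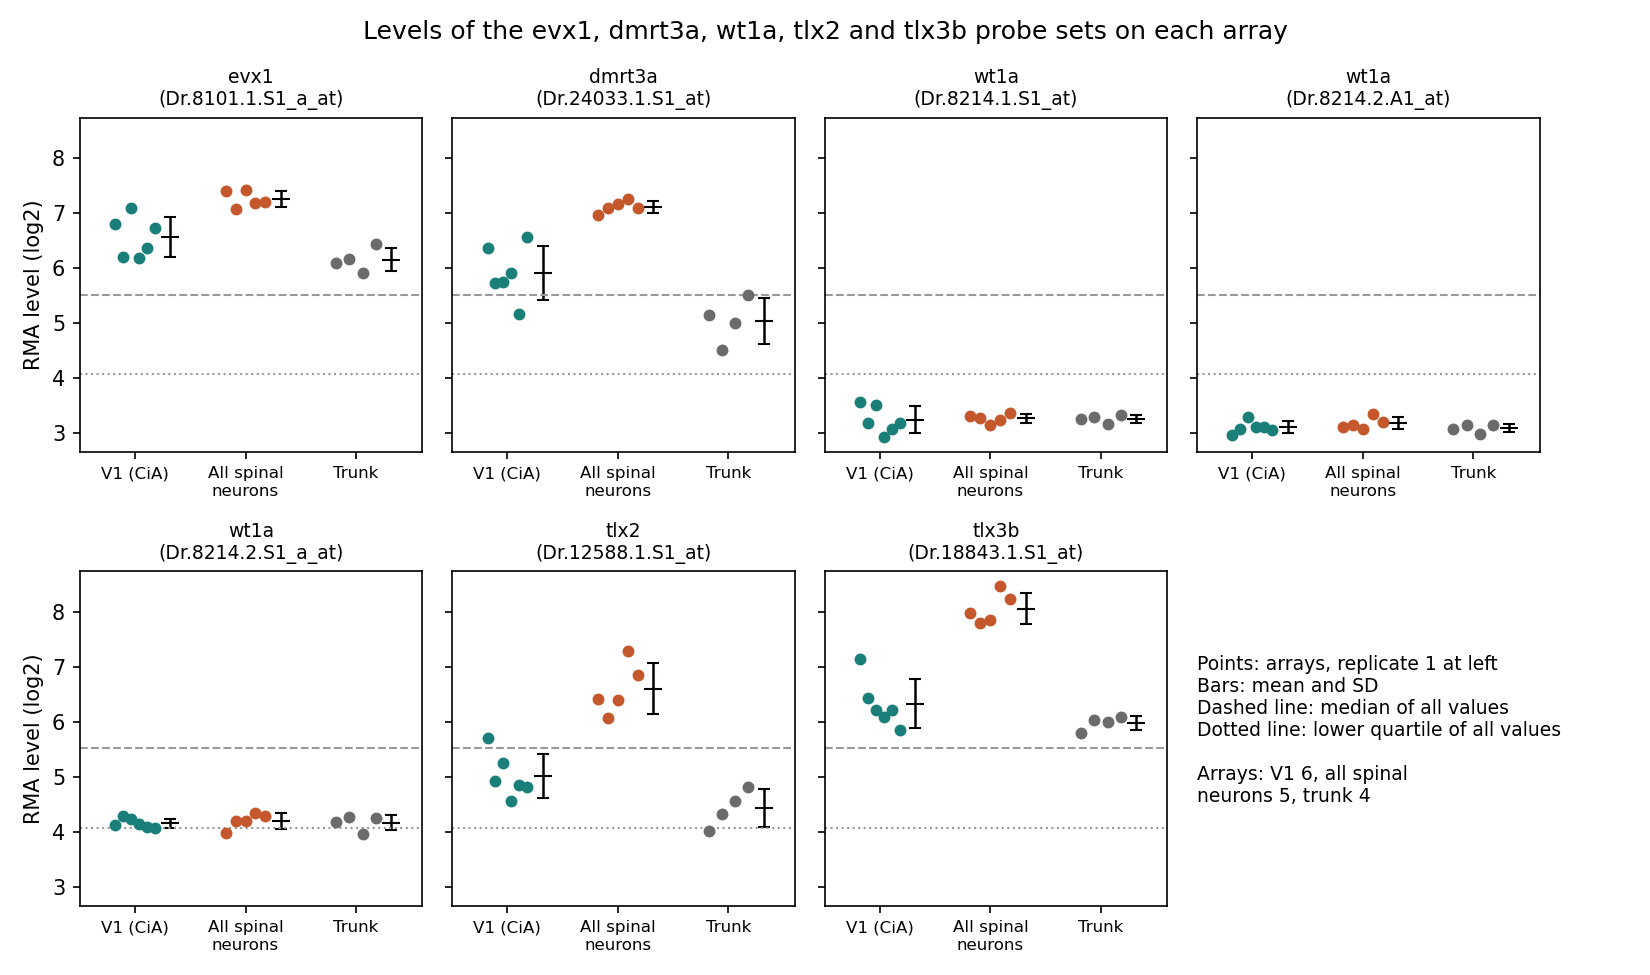
Level (log2 RMA value, y axis) of each of the 7 probe sets on every array, with V1 (6 arrays), all spinal neurons (5) and trunk (4) from left to right; points are arrays, and bars are the mean and SD, with the median (dashed) and lower quartile (dotted) of all values. evx1, dmrt3a, tlx2 and tlx3b are highest in all spinal neurons, while the 3 wt1a probe sets stay between 2.93 and 4.34 in all groups.

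Across the 3 groups, evx1, dmrt3a, tlx2 and tlx3b shared an order, with all spinal neurons highest, V1 cells between and trunk cells lowest by mean. These 4 of 5 genes were lower in V1 than in all-neuron arrays, where 9.3% of all probe sets were lower by the same test, limma's moderated test at Benjamini-Hochberg adjusted p under 0.05. The same 4 were higher in all-neuron than in trunk arrays, where 20.8% of all probe sets were. Both calls together held for 4 of the 7 probe sets and for 5.79% of all probe sets. Only dmrt3a of the 5 passed in all 3 comparisons, an order of all neurons over V1 over trunk that 2.32% of probe sets showed. The comparisons share arrays, so their results are not independent of each other.

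The homeobox gene evx1 had the smallest difference of these 4 between V1 and all neurons. It read 6.19, 6.55 and 7.10 as the lowest, median and highest of the V1 arrays, against 7.40, 7.07, 7.42, 7.18 and 7.21 in all-neuron arrays 1 to 5. Trunk arrays 1 to 4 read 6.10, 6.17, 5.92 and 6.44. V1 array 3, the highest of its group, lay just above all-neuron array 2, the lowest of its group, and the other V1 arrays lay below every all-neuron array. V1 and trunk arrays overlapped, while every all-neuron array lay above every trunk array, as for dmrt3a, tlx2 and tlx3b and for 18.7% of probe sets. Another 18.1% of probe sets separated the other way.

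evx1 was lower in V1 than in all-neuron arrays by 1.61-fold (a log2 change of −0.69 with SE 0.16, adjusted p = 0.00448). Without all-neuron arrays 1 to 3, the 3 with the most muscle signal, the difference was −0.63 with adjusted p = 0.0685. Against trunk it was 2.14-fold higher in all-neuron arrays (1.10, SE 0.17, adjusted p = 7.97e-05). The V1 mean of 6.57 ± 0.37 (SD, n = 6) and the trunk mean of 6.16 ± 0.22 (n = 4) differed by 0.41 (95% interval 0.06 to 0.76), which did not pass after adjustment (adjusted p = 0.0604). That comparison passed without V1 array 2 (0.48, adjusted p = 0.0302), without V1 array 4 (0.48, adjusted p = 0.029) and without trunk array 4 (0.50, adjusted p = 0.0376). With any of the other 12 arrays left out it did not pass, with adjusted p up to 0.166. Without trunk arrays 1 and 2 it was 0.39 with adjusted p = 0.228.

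dmrt3a, the marker of dI6 neurons, was even across all-neuron arrays and uneven across V1 arrays. It read 5.17, 5.83 and 6.56 as the lowest, median and highest of the V1 arrays. All-neuron arrays 1 to 5 read 6.96, 7.09, 7.17, 7.26 and 7.10, and trunk arrays 1 to 4 read 5.15, 4.50, 5.00 and 5.51. Every V1 array lay below every all-neuron array, as for 5.46% of probe sets, whereas V1 array 5 fell among the trunk arrays. The SD was 0.50 over the V1 arrays and 0.11 over the all-neuron arrays. Of all probe sets, 94.5% had a smaller SD among V1 arrays and 28.4% a smaller SD among all-neuron arrays. V1 arrays 6 and 1 were the highest for dmrt3a and array 5 the lowest.

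dmrt3a was lower in V1 than in all-neuron arrays by 2.30-fold (a log2 change of −1.20, SE 0.21, adjusted p = 7.34e-04). It was higher in V1 than in trunk arrays (0.87, SE 0.23, adjusted p = 0.00599), and was the only one of the 5 genes to pass there, beside 22% of all probe sets that were higher in V1. Without trunk arrays 1 and 2 that difference was 0.66 with adjusted p = 0.0942. In all-neuron arrays it was higher than in trunk arrays by 2.08 on the log2 scale (SE 0.24, adjusted p = 3.47e-06). No fold is given against trunk, because the trunk levels of dmrt3a lay at or under the median of all values and are not known to lie above background.

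wt1a, a zinc finger gene of dI6 neurons and of the kidney's filtering cells, showed no difference between the groups that passed in any of its 3 probe sets. The brightest averaged 4.15 ± 0.08 (SD, n = 6) in V1 arrays, 4.20 ± 0.14 (n = 5) in all-neuron arrays and 4.17 ± 0.14 (n = 4) in trunk arrays. Another averaged 3.24 ± 0.25, 3.26 ± 0.08 and 3.26 ± 0.07 in the same groups. The dimmest averaged 3.10 ± 0.11, 3.17 ± 0.11 and 3.09 ± 0.08. All 3 lay around or under the lower quartile of all values, and their groups overlapped throughout.

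The 3 wt1a differences between V1 and all-neuron arrays were −0.04, −0.02 and −0.07 in that order, with 95% intervals of −0.22 to 0.13, −0.25 to 0.20 and −0.23 to 0.09. In the widest of these a difference of 1.19-fold in signal was the largest that the interval held. Because the probe sets may read background, these intervals describe signal and do not bound the transcript. Of 8 listed genes of podocytes and lateral mesoderm, tissues in which Wt1 is also active, 3 were measured, podxl, hand2 and aldh1a2. Between V1 and all-neuron arrays, podxl (0.75, adjusted p = 0.021) and aldh1a2 (1.29, adjusted p = 0.0443) were higher, and hand2 (−1.84, adjusted p = 0.00201) was lower.

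The Tlx homeobox genes had the largest differences of the 5 between V1 and all neurons. tlx3b read 5.86, 6.22 and 7.15 as the lowest, median and highest of the V1 arrays, against 7.97, 7.79, 7.85, 8.47 and 8.23 in all-neuron arrays 1 to 5. Trunk arrays 1 to 4 read 5.81, 6.03, 6.00 and 6.08. Every V1 array lay below every all-neuron array, and V1 array 1 stood highest of its group while V1 array 6 fell inside the trunk range.

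tlx3b was lower in V1 than in all-neuron arrays by 3.32-fold (a log2 change of −1.73, SE 0.19, adjusted p = 7.33e-06). A larger absolute difference was found in 1.9% of all probe sets. It was higher in all-neuron than in trunk arrays by 4.23-fold (2.08, SE 0.21, adjusted p = 9.19e-07). Between V1, at 6.33 ± 0.44 (SD, n = 6), and trunk, at 5.98 ± 0.12 (n = 4), it differed by 0.35 (95% interval −0.07 to 0.77, adjusted p = 0.181), which did not pass.

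tlx2 read 4.56, 4.89 and 5.71 as the lowest, median and highest of the V1 arrays, against 6.42, 6.07, 6.40, 7.28 and 6.85 in all-neuron arrays 1 to 5. Trunk arrays 1 to 4 read 4.02, 4.32, 4.55 and 4.82. Every V1 array lay below every all-neuron array, and V1 and trunk arrays overlapped. The RefSeq gene table lists tlx3a among the older names of tlx2. A separate gene now carries the symbol tlx3a, and no probe set here has that symbol.

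tlx2 was lower in V1 than in all-neuron arrays (log2 difference −1.59, SE 0.23, adjusted p = 1.05e-04), with no fold given because 5 of the 6 V1 arrays read under the median of all values. A larger absolute difference was found in 2.3% of all probe sets. It was higher in all-neuron than in trunk arrays by 2.18 on the log2 scale (SE 0.25, adjusted p = 3.95e-06), likewise with no fold, since the trunk arrays read nearer the lower quartile. The difference between V1 and trunk was 0.59 (95% interval 0.08 to 1.10, adjusted p = 0.0641). It passed without V1 array 4 (0.68, adjusted p = 0.0395), without trunk array 4 (0.72, adjusted p = 0.0419) and, at adjusted p = 0.0395, with all-neuron array 4 left out (0.59), which enters that comparison through the shared spread. With any of the other 12 arrays left out it did not pass, with adjusted p up to 0.19. Without trunk arrays 1 and 2 it was 0.33 with adjusted p = 0.474.

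**Figure D2:**
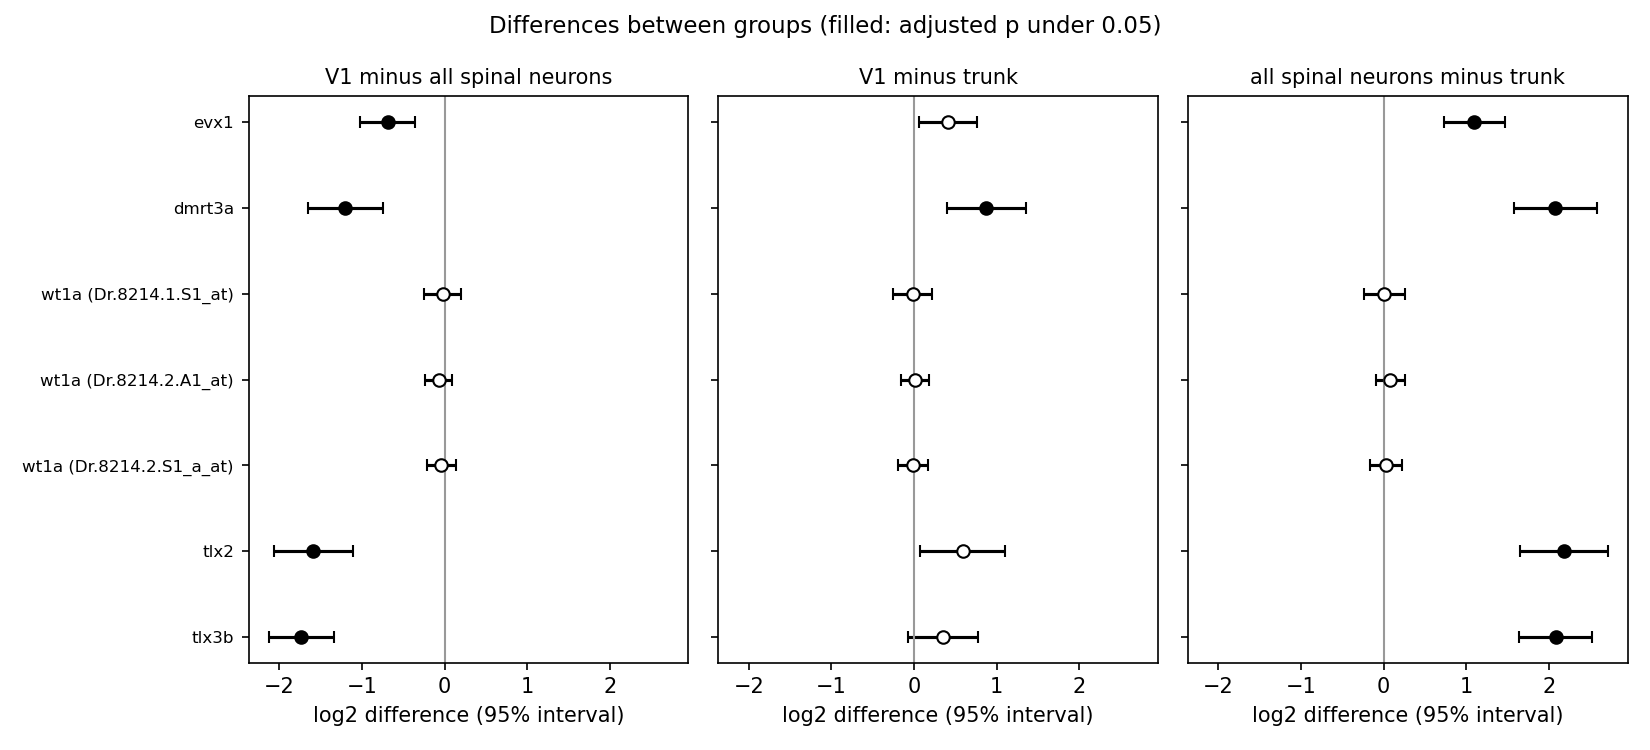
Log2 difference (x axis) of each probe set in the 3 comparisons, with the 95% interval of the fit as bars and filled points where adjusted p was under 0.05. Between V1 and all spinal neurons the points run from −1.73 for tlx3b to −0.69 for evx1 with wt1a near 0, and against trunk V1 passes for dmrt3a only.

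The sizes of the differences were not tested against each other between genes, since probe sets respond to RNA with different slopes. The 95% intervals of the difference between V1 and all neurons were −2.13 to −1.34 for tlx3b, −2.07 to −1.11 for tlx2, −1.65 to −0.75 for dmrt3a and −1.02 to −0.36 for evx1. Those of tlx3b and tlx2 lay below that of evx1, and that of dmrt3a overlapped the others. As slopes differ, this describes signal and does not rank the genes by change in RNA.

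The pair of Tlx genes also varied together from array to array. Likeness was measured as the root-mean-square difference between 2 probe sets' log2 levels over the 15 arrays, each first centred on its own mean. By this measure tlx2 was the gene most like tlx3b of all genes with a symbol of their own, at 0.23. For tlx2 the closest was eef1a1b, a translation elongation factor gene, at 0.22, followed by tlx3b at 0.23 and calb1, which encodes the calcium-binding protein calbindin, at 0.23. For tlx3b, calb1 (0.27) and eef1a1b (0.29) followed tlx2. These values take in the differences between groups as well as those within them. Whether the tlx2 and tlx3b probes also bind each other's transcripts was not tested.

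dmrt3a was most like eml2, a gene of a microtubule-associated protein (0.33), wdsub1 (0.36) and a gene with only a clone name (0.36). evx1 was most like rab36, a small GTPase gene (0.21), the Eph-type kinase gene ek1 (0.21) and dennd5b, a regulator of Rab GTPases (0.23). The other rab36 probe set did not pass in any comparison, with V1, all-neuron and trunk means of 4.13, 4.20 and 4.09. wt1a was left out of this search because its group means spanned only 0.04. Between dmrt3a and the Tlx genes the measure was 0.46 for tlx2 and 0.50 for tlx3b, and between evx1 and the other 3 it was 0.51 to 0.60. The measure also depends on how far the group means span, 1.10 for evx1 and 2.08 to 2.18 for the other 3. The brightest wt1a probe set, with hardly any span, lay at 0.49 from evx1.

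Within the all-neuron group, tlx2 and tlx3b gave the same order of arrays, with 4 highest, then 5, 1, 3 and 2. The mean over the 5 measured Rohon-Beard genes was also highest in array 4 (7.61) and then array 5 (7.33), against 6.66, 6.89 and 6.94 in arrays 1, 2 and 3. This was not particular to Rohon-Beard genes. Means over inhibitory transmission genes (9.59 and 9.44) and over the V1 list (6.74 and 6.75) were likewise highest in arrays 4 and 5. Those of the V0 list (4.44 and 4.60) and the dI1 to dI4 list (5.61 and 5.68) were lowest there, as were muscle genes. Within the V1 group, array 1 was highest for tlx2, for tlx3b, for the Rohon-Beard mean (5.92, beside 5.36 to 5.65 in the other V1 arrays) and for the muscle mean (8.29). V1 array 4 was next highest for the Rohon-Beard mean (5.65) and for the muscle mean, but lowest for tlx2 (4.56). The part of Rohon-Beard cells or of muscle in the Tlx values was not tested. Without all-neuron arrays 1 to 3 the difference between V1 and all neurons was −2.05 for tlx2 and −2.02 for tlx3b, and without V1 array 1 it was −1.73 and −1.90.

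**Figure D3:**
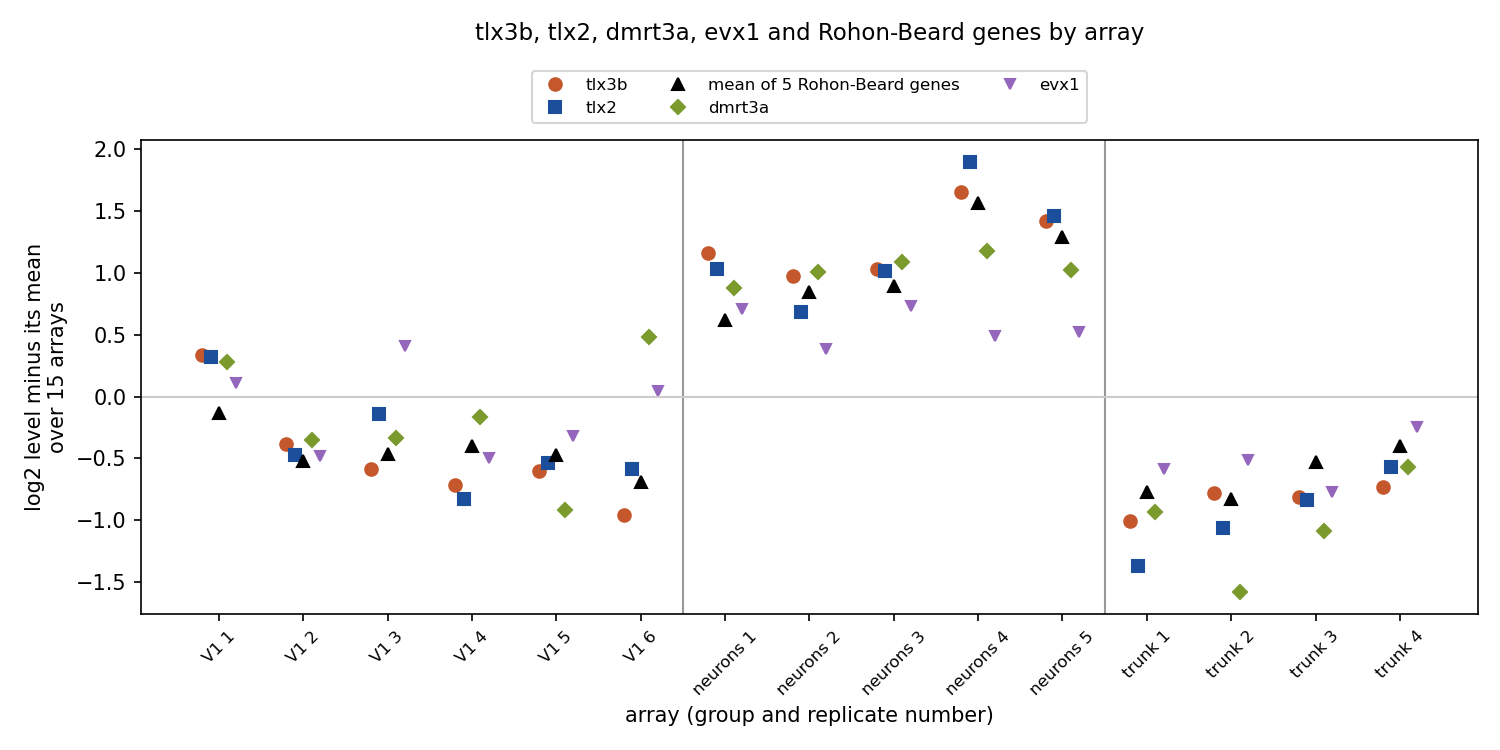
Log2 level minus its own mean over 15 arrays (y axis) for tlx3b, tlx2, dmrt3a, evx1 and the mean of 5 Rohon-Beard genes, on each array (x axis) of the V1, all-neuron and trunk groups from left to right. tlx3b, tlx2 and the Rohon-Beard mean are highest on all-neuron array 4, and on V1 array 1 among V1 arrays. dmrt3a, also highest on all-neuron array 4, is highest on array 6 among V1 arrays, and evx1 is highest on array 3 in both groups.

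Other genes of the same neuron classes were read from lists, with 1 probe set a gene, the one with the highest mean over all arrays. Over all 8793 genes so taken, 15.2% were higher and 9.02% lower in V1 than in all-neuron arrays, with a median difference of 0.01. Of the 6 listed genes of V0 neurons and their progenitors 5 were measured, and only evx1 was lower in V1 arrays (list median −0.39). Its paralog evx2 stayed near the lower quartile, at 4.17 ± 0.20 (SD, n = 6) in V1 and 4.37 ± 0.09 (n = 5) in all-neuron arrays, and did not pass (−0.20, adjusted p = 0.167). The progenitor factor genes dbx1a (−0.39), dbx1b (−0.53) and dbx2 (−0.14) did not pass either. Against trunk, V1 arrays were lower for dbx1a (−1.26, adjusted p = 0.00762), and all-neuron arrays differed by −0.87 with adjusted p = 0.0605.

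Of 5 listed dI6 genes 3 were measured, dmrt3a, wt1a and the basic helix-loop-helix gene bhlhe22. bhlhe22 averaged 5.99 ± 0.70 (SD, n = 6) in V1, 6.58 ± 0.53 (n = 5) in all-neuron and 4.89 ± 0.29 (n = 4) in trunk arrays. It did not pass between V1 and all neurons (−0.60, adjusted p = 0.188), but was higher than in trunk in V1 (1.10, adjusted p = 0.0136) and in all neurons (1.70, adjusted p = 7.05e-04). Its group means stood in the same order as those of dmrt3a.

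Of 11 listed genes of the Tlx class and other excitatory dorsal or sensory neurons, 5 were measured. Between V1 and all neurons 3 were lower, tlx3b, tlx2 and isl1a, and none was higher (list median −0.48). isl1a, a LIM homeobox gene also of motor neurons and Rohon-Beard cells, differed by −0.48 in both of its probe sets, of which 1 passed (adjusted p = 0.033) and the other did not (adjusted p = 0.0856). Unlike tlx2 and tlx3b it was higher in V1 than in trunk arrays in both probe sets (1.86 and 1.66). tlx1 stayed at the bottom of the scale, with group means of 2.85, 2.90 and 2.86 in V1, all neurons and trunk, and pou4f2 did not pass (−0.04).

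Of 5 measured Rohon-Beard genes 4 were lower in V1 than in all-neuron arrays and none was higher. These were runx3 (−3.02, but −0.38 in its other probe set), prdm14 (−2.10) and isl2a (−1.12), all transcription factor genes, and p2rx3a, an ATP-gated channel gene (−1.04). p2rx3a averaged 3.37 in V1 and 3.42 in trunk arrays, under the lower quartile of all values, and 4.41 in all-neuron arrays. The same 4 were higher in all-neuron than in trunk arrays, where 20.8% of all 8793 genes were. Between V1 and trunk, isl2a was higher (1.37), runx3 was lower (−0.95), and prdm14 (0.53), p2rx3a (−0.05) and cbfb (0.04) did not pass. The other runx3 probe set did not pass against trunk, either in all neurons (0.16, adjusted p = 0.268) or in V1 (−0.23, adjusted p = 0.0876).

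Of 10 measured genes of the dI1 to dI4 classes and their progenitors, 2 were higher and 2 lower in V1 than in all-neuron arrays. The homeobox gene gbx2 (1.60) and the forkhead gene foxd3 (1.28), which is also in the neural crest list, were higher, and olig3 (−1.36, and −0.09 in a second, dim probe set) and gbx1 (−0.90) were lower. The list median was −0.09, near that of all genes. Of 11 measured V1 genes 6 were higher and 2 lower (list median 0.55). The 2 lower ones were sp8b (−0.99, adjusted p = 0.00912) and foxp2 (−0.43, adjusted p = 0.00648). foxp2 averaged 4.27 in V1 and 4.70 in all-neuron arrays, near the lower quartile of all values. The engrailed gene en1a, at 2.91 in V1 arrays, did not pass (−0.04). The higher ones included otpb (1.83), en1b (1.61) and pax2a, whose reporter the cells were sorted by (1.30, and 0.29 with adjusted p = 0.0523 in the second probe set).

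For transmitter genes, none of the 4 listed glutamate transporter genes had a probe set with a symbol of its own, so the excitatory state of the cells was not analysed here. Of 4 measured genes of inhibitory transmission, both GABA synthesis genes, gad2 (−1.63) and gad1b (−1.30), were lower in V1 arrays. slc32a1, which loads both inhibitory transmitters into vesicles, was higher (0.41, adjusted p = 0.0207).

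**Figure D4:**
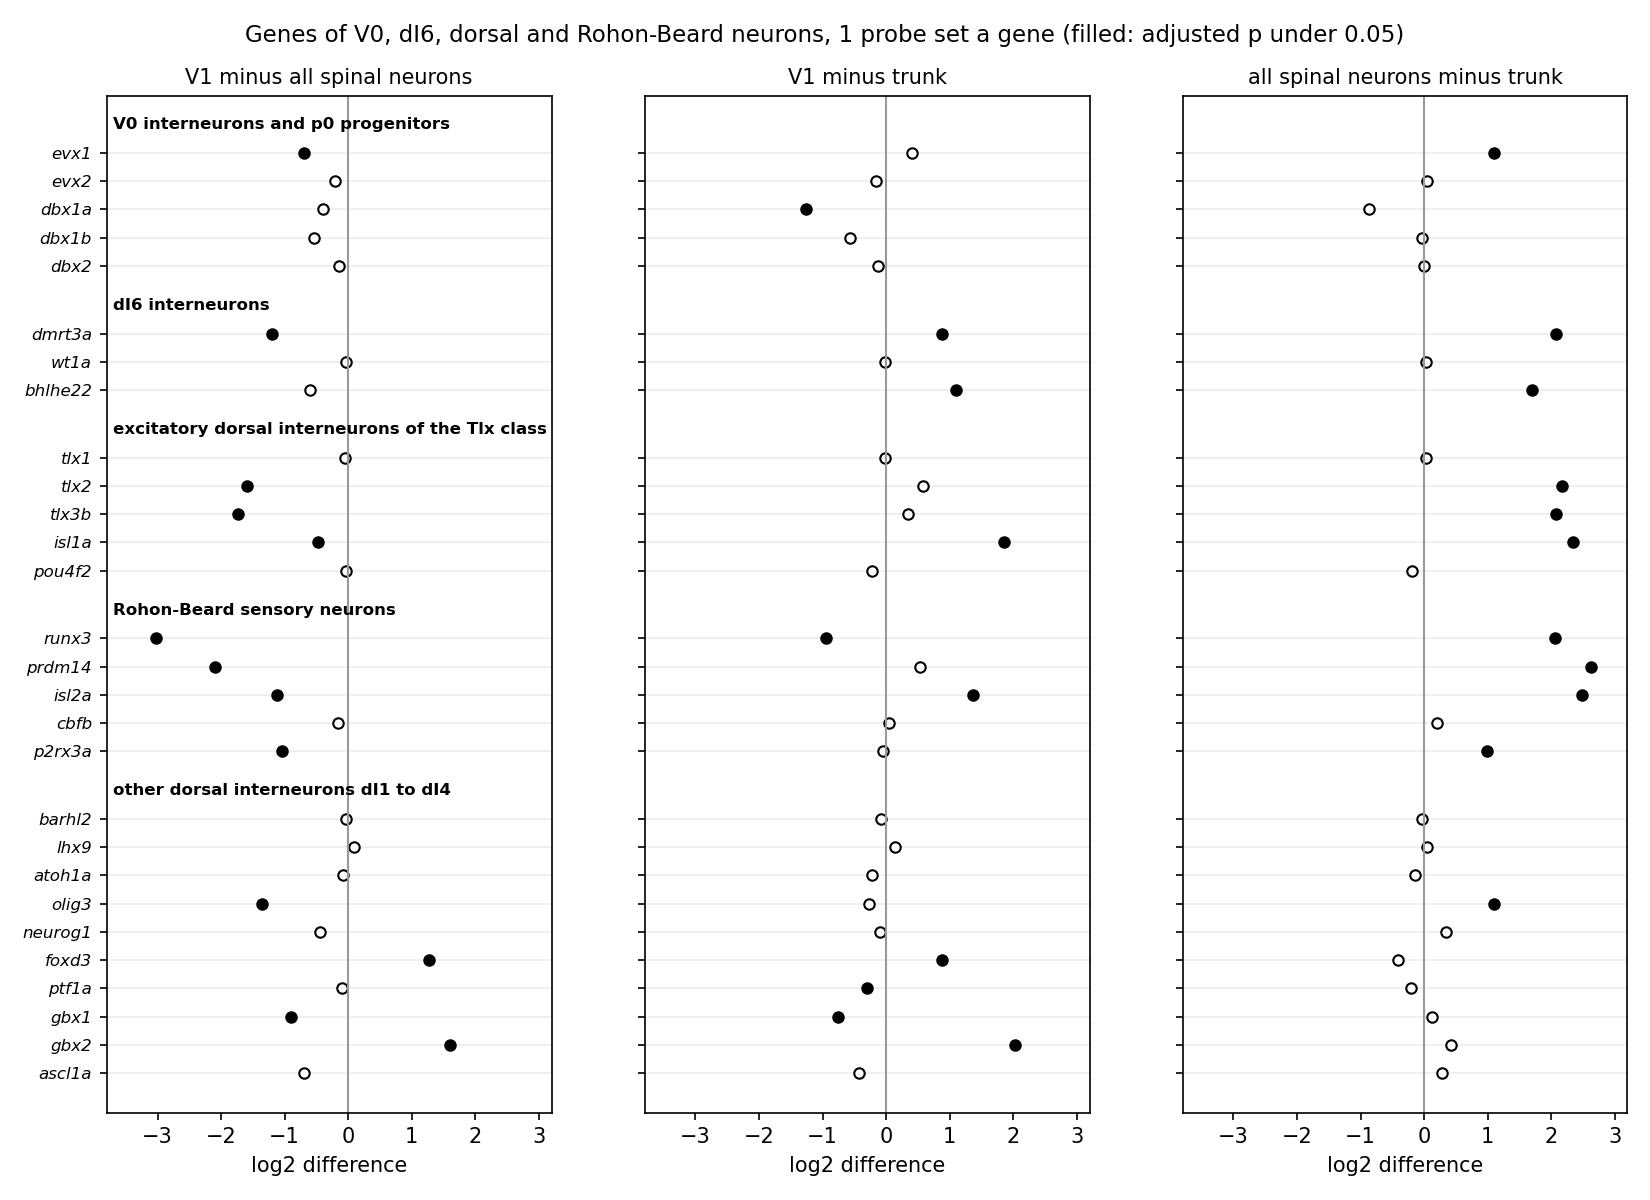
Log2 difference (x axis) of each measured gene of 5 neuron class lists in the 3 comparisons, 1 probe set a gene, filled where adjusted p was under 0.05. Between V1 and all spinal neurons the filled points of the V0, dI6, Tlx class and Rohon-Beard lists all lie below 0, and those of the dI1 to dI4 list lie on both sides.

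evx1 was also set beside 7 measured genes of tailbud and hindgut, where Evx genes are active too. Of these 3 were lower in V1 than in all-neuron arrays, cdx4 (−1.93), tbx16 (−1.93) and msgn1 (−0.53), and none was higher. The other probe set of tbx16 differed by −0.89 (adjusted p = 0.00535), and that of msgn1, a dim one, by −0.04 (adjusted p = 0.736). The list's mean was 4.40 to 4.48 in V1, 5.04 to 5.26 in all-neuron and 4.75 to 4.89 in trunk arrays, and eve1 (−0.08) and tbxta (−0.54) did not pass between V1 and all neurons. Their part in the evx1 values was not tested.

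Of the 7 measured neighbours of these genes in the genome, none was both lower in V1 than in all-neuron arrays and higher in all-neuron than in trunk arrays. Both calls held for 5.79% of all probe sets, so a count of none among 7 genes says little. In the RefSeq gene order of assembly GRCz12tu, tlx3b lies beside npm1a and tlx2 beside npm1b, which are paralogs that encode nucleophosmin. npm1a was higher in V1 than in all-neuron arrays (0.64, adjusted p = 0.0091), opposite to tlx3b, and npm1b did not pass (−0.61, adjusted p = 0.282). dmrt3a lies between its relatives dmrt1 and dmrt2a, neither of which passed between V1 and all neurons (−0.28, adjusted p = 0.0641 and −0.13, adjusted p = 0.474). In V1 and all-neuron arrays dmrt1 averaged 3.05 and 3.33, under the lower quartile of all values, and dmrt2a 4.29 and 4.42, near it. hibadha, next to evx1, did not pass (−0.21, adjusted p = 0.452) and was lower in all-neuron than in trunk arrays (−1.73), where evx1 was higher. The gene next to wt1a, the eye and spinal progenitor factor gene pax6a, was lower in V1 than in all-neuron arrays (−1.46, adjusted p = 0.00253), where no wt1a probe set passed.

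Scaling between arrays did not turn any passing difference of the 5 genes. When the mean of 76 ribosomal protein probe sets was set equal on all arrays, the median of all probe sets between V1 and all neurons moved to −0.56 and that between all neurons and trunk to 0.44. Under it the differences between V1 and all neurons were −2.28 for tlx3b, −2.13 for tlx2, −1.75 for dmrt3a and −1.23 for evx1, all further below 0 than that median. The 3 wt1a probe sets then read −0.59, −0.57 and −0.62, close to the shifted median.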

How the data were processed

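RNA of sorted cells was amplified in 2 rounds, labelled and hybridized to Affymetrix arrays, per the labels' protocols. The submitters' processing notes name Affymetrix Expression Console and RMA as what the authors used for the deposited log2 values, whose scale is judged from their range. For program versions, chip definition and build, the sources used here give nothing.

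Of 15617 probe sets 115 controls were set aside. Of the 15502 left, 10795 had 1 gene symbol, 135 several and 4572 none. A model with 1 mean a group took in all 15 arrays (limma 3.58.1, lmFit and eBayes, in R 4.3.3) with 12 residual degrees of freedom, and each of 3 differences was tested two-sided with Benjamini-Hochberg adjustment over all tested probe sets, at 0.05. Replicates are those the labels number and the series' design text calls biological. The number of arrays limits the precision. The fit was tested on simulated data in which 200 of the 15502 probe sets were changed. Over the 3 comparisons it called 40 to 44% of simulated log2 differences of 0.5 and 82 to 96% of those of 1. False calls were 10 to 12 a comparison, and simulated differences of 0.5 were often missed. In the real comparisons 22% to 41.4% of probe sets were called, a far larger share than was changed in the simulation. The adjusted threshold depends on that share, so these rates do not measure what the real comparisons missed. The alternatives were other scalings between arrays, a filter on dim probe sets, other variance settings and thresholds, the replicate block, and arrays left out.

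Named genes were all members, all measured genes of the V0, dI6 and Tlx lists, the called genes of other lists with the largest differences, and the 3 genes most like each member that varied. Genes named beside these, such as those of counts of 5 or fewer and the neighbours, were chosen after their values were seen. The members, lists and tests were chosen with earlier results of these data known, so the patterns are not independent support. Python 3.11.15 and matplotlib 3.10.9 made the figures.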

Additional observations from a re-analysis of the deposited data

How the results depend on the processing

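Of 26 alternatives for each gene and comparison, 25 for wt1a, none turned a passing difference. In several of them the difference itself cannot change, such as the stricter threshold or leaving out arrays of the group not compared. Its direction could not turn there. Between V1 and all neurons, dmrt3a, tlx2 and tlx3b passed in all 26 and evx1 in 25, failing without all-neuron arrays 1 to 3 (−0.63, adjusted p = 0.0685). Fewer arrays were fitted there, and why evx1 failed was not tested. Between all neurons and trunk these 4 genes passed in all 26. Between V1 and trunk, dmrt3a passed in 25, failing without trunk arrays 1 and 2 (0.66, adjusted p = 0.0942). There evx1 passed in 4, which were equal array medians (0.42) and 3 single arrays left out, and tlx3b in 0. tlx2 passed in 6, which were cyclic loess (0.64), the filter on dim probe sets (0.59), leaving out all-neuron arrays 1 to 3 (0.59) and 3 single arrays left out. With equal ribosomal protein means, the wt1a probe sets passed between V1 and all neurons (−0.57, −0.62 and −0.59) and between all neurons and trunk (0.47, 0.55 and 0.49), beside medians of all probe sets of −0.56 and 0.44. The filter on dim probe sets left wt1a out, so it has no value there.

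Leaving out each array in turn gave, between V1 and all neurons, −0.79 to −0.61 for evx1, −1.33 to −1.05 for dmrt3a, −1.73 to −1.42 for tlx2 and −1.90 to −1.63 for tlx3b. Between V1 and trunk it gave 0.30 to 0.50 for evx1 and 0.45 to 0.72 for tlx2.

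Equal ribosomal protein means called 12124 probe sets between V1 and all neurons (517 higher, 11607 lower, against 1966 and 1442) and 9822 between all neurons and trunk (8541 higher, 1281 lower, against 3219 and 3196). Equal array medians called 1688 higher and 1778 lower between V1 and all neurons. A threshold of 0.01 called 1985 probe sets there. Arrays with the same number deviated together in 4 of 13 pairs (r over 0.1 across probe sets, from −0.13 to 0.36). Arrays with different numbers were not set beside these, so the values cannot show whether the numbers pair the samples. With the replicate block the differences between V1 and all neurons were −0.72 for evx1, −1.33 for dmrt3a, −1.55 for tlx2 and −1.64 for tlx3b, with 3014 probe sets called, and no member's call changed.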
